A study of Mus musculus with 9 samples.

Results

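The genes described here encode the pre-B-cell receptor (pre-BCR), the VpreB-like protein of Vpreb3 and the first proteins that carry the receptor's signal. They were chosen by their place in the pathway, with earlier results of these data known, and are 10 of the 50686 genes in the count tables: Igll1, Vpreb1, Vpreb2, Vpreb3, Ighm, Cd79a, Cd79b, Syk, Blnk and Btk. All 10 passed the filter on low counts, among 13852 genes tested. The material was bone marrow of C57BL/6N mice, transformed by the BCR/ABLp185 oncogene and grown as BCR/ABLp185+ cell lines, whose mRNA was sequenced. There were 3 lines, 1 for each genotype, wt, Stat5a-/- and Stat5b-/-, and each line was sequenced as 3 technical replicates, 9 libraries in all. All groups carry BCR/ABLp185, and the knockouts lack 1 of the related transcription factors STAT5A and STAT5B. Because each genotype is 1 line, the genotype and the line cannot be told apart, and the p-values measure only the spread between technical replicates.

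The pre-BCR is the receptor of a B-cell precursor that has rearranged its heavy chain gene but not yet a light chain gene. The µ heavy chain, from Ighm, pairs with a surrogate light chain made of λ5, from Igll1, and a VpreB protein, from Vpreb1 or Vpreb2. The complex signals through CD79A and CD79B (Igα and Igβ), which recruit the kinase SYK, and SYK acts through the adaptor BLNK and the kinase BTK. Signalling drives pre-B cells to divide and then to rearrange a light chain. In B-cell precursors, STAT5 is known to transmit the signal of the IL-7 receptor, and BCR/ABL activates STAT5 without that receptor.

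Vpreb1 and Vpreb2 are near copies of each other, and their sequences are shown first because their values turned out to differ. Both lie on chromosome 16 of GRCm38, Vpreb1 (ENSMUSG00000059305.10) at chr16:16868402-16870843 on the minus strand and Vpreb2 (ENSMUSG00000059280.3) at chr16:17980565-17981080 on the plus strand. Their coding sequences of 429 bases, in GENCODE M21, were identical at 420 positions and differed at 9, an identity of 97.9%. The stretch from base 328 to base 387, counted from the first base of the start codon, holds 5 of these differences, and the differing bases are in capitals.
Vpreb1 coding: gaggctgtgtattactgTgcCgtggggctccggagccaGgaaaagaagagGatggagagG
Vpreb2 coding: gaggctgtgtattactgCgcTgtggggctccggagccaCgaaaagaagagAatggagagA

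The likeness extends upstream of the coding part. A stretch of 106 bases before the start of the main transcript was identical at 104 positions (98.1%) in the RefSeq promoter windows of GRCm38.p6. In Vpreb1 it spans chr16:16869256-16869361 on the minus strand and ends at the base before that start, with 89 of its bases inside an exon of a noncoding Vpreb1 transcript. In Vpreb2 it spans chr16:17980315-17980420 on the plus strand and ends 7 bases before it. The bases that differ are again in capitals.
Vpreb1 upstream: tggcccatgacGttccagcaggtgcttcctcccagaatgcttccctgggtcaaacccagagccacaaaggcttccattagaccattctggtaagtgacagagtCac
Vpreb2 upstream: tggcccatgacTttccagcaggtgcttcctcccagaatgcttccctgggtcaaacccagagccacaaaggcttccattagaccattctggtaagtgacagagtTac

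Reads of 50 bases cannot always tell these genes apart. Of the 50-base windows of the M21 transcripts, 233 were the same in both genes. These are 32.8% of the windows of Vpreb2, taken over its whole M21 transcript, and the share within the counted part was not computed. Of the windows of Vpreb1, 23.6% were shared with another gene, Vpreb2 or Top3b. The Vpreb2 gene model of the count tables holds 429 bases, the length of the coding part alone, while the M21 transcript has 759 bases, so reads outside the coding part of Vpreb2 were not counted. Vpreb1 was counted over 1113 bases, of which 9.70% also belong to exons of Top3b on the other strand.

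Promoter windows of 300 bases were at hand for 8 of the 10 genes, with 9 windows since Syk has 2, and not for Cd79b and Ighm. They were searched on both strands for 6 motifs. The letters TTCNNNGAA, the core of the element STAT proteins bind, were in 0 of the 9 windows and in 8.30% of all 32851 RefSeq promoters. The E-box CAGCTG was in 3 of 9, those of Igll1, Vpreb2 and 1 of Syk, against 16.3% of all promoters, and the wider form CANNTG, which includes it, was in 9 of 9 against 72.3%. The Vpreb2 window is set on the start of its coding-only model, 17980565, while its main M21 transcript starts upstream, at 17980428. Its CAGCTG, at -60, therefore lies downstream of that transcript start, and the windows of Vpreb1 and Vpreb2 do not cover matching stretches. GAGGAA, letters bound by PU.1, was in 6 of 9 against 28.3%. Its matches in Vpreb1 and Vpreb2 are the same site of the shared upstream stretch, so they are not separate finds. A palindromic EBF1-type motif was in 0 of 9 (0.904% of all promoters), as was an interferon-type motif (3.44%). Such matches describe the letters of a window only, and no match says nothing of binding elsewhere.

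The knocked-out genes were examined as a check of the labels. Stat5a had 36.0 to 48.2 normalized CPM (read counts scaled to a common library total) in wt, 11.8 to 13.6 in Stat5a-/- and 72.2 to 91.7 in Stat5b-/- libraries. Stat5b had 103 to 107 in wt, 124 to 156 in Stat5a-/- and 58.5 to 72.3 in Stat5b-/- libraries. Each was lowest in the line that lacks it, and reads on both genes remained there. Libraries held 11948136 to 19016396 counted reads, and the 10 pre-BCR genes took between 0.692% and 1.16% of them. Within a line, a library's deviation from its line's mean correlated with the GC content of the genes by up to 0.52 in absolute value across genes.

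Against wt, 9 of the 10 genes were higher in Stat5a-/- and 0 were lower by edgeR's quasi-likelihood test, at a Benjamini-Hochberg adjusted p under 0.05 over all tested genes. Over all genes, 19.8% were higher and 16.3% lower. In Stat5b-/- against wt, 5 were higher and 2 lower, against a background of 24.2% and 22.0%. Between the knockouts, 0 were higher and 4 lower when Stat5b-/- was set against Stat5a-/-, where 16.4% of all genes were higher and 17.5% lower. The median log2 fold change of the 10 genes was 0.64, 0.34 and -0.17 in these comparisons, and that of all genes 0.010, 0.023 and 0.020. With a fold change above 2 also required, 1 gene (Ighm) was higher and 0 were lower in Stat5a-/-, while 7.75% of all genes were higher and 6.49% lower. In Stat5b-/-, Cd79a was higher and Vpreb2 lower than in wt by that rule, against 10.6% and 8.44% of all genes. Cd79a did not reach it without Stat5b-/- replicate 1, where its log2 fold change was 0.95. Between the knockouts, Ighm and Vpreb2 were lower in Stat5b-/- and 0 genes were higher, against 6.60% and 4.81% of all genes. Both comparisons with wt share the wt libraries. The libraries of the groups did not overlap for 9, 8 and 6 of the genes in the 3 comparisons, against 49.2%, 54.2% and 44.8% of all genes.

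**Figure D1:**
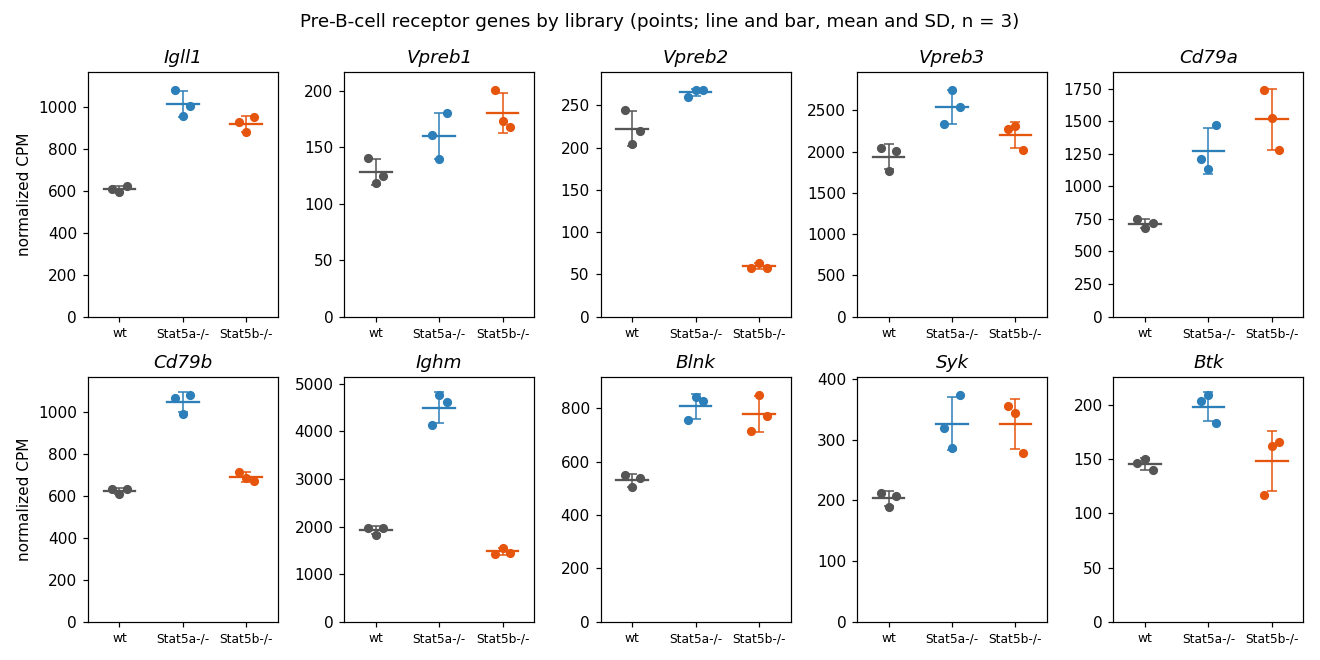
Normalized CPM (vertical axes, each from 0) of the 10 genes in the wt, Stat5a-/- and Stat5b-/- lines, with a point per library, a line at the mean and a bar for the SD (n = 3). Vpreb2 sits between 57.5 and 63.5 in the Stat5b-/- libraries and at or above 204 in the other 6, and Ighm is highest in the 3 Stat5a-/- libraries.

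Of the surrogate light chain genes, Igll1 and Vpreb1 were higher in Stat5b-/- than in wt and Vpreb2 was lower. In Stat5a-/- Igll1 was higher, and so was the VpreB-like gene Vpreb3. Igll1 (ENSMUSG00000075370.10, chr16:16860671-16863985, minus strand), which encodes λ5, had 608, 594 and 624 normalized CPM in wt, 1079.8, 955 and 1003 in Stat5a-/-, and 925, 878 and 952 in Stat5b-/- libraries. All 6 knockout libraries lay above the wt libraries, and the highest Stat5b-/- library lay just below the lowest Stat5a-/- library. On the log2 scale the rise over wt was 0.73 in Stat5a-/- (standard error, SE, 0.093, adjusted p = 3.55e-05) and 0.59 in Stat5b-/- (SE 0.093, adjusted p = 1.87e-04). The knockouts differed by -0.14 (SE 0.093), which did not pass the test (adjusted p = 0.265). Without Stat5a-/- replicate 1 the difference was -0.093 (adjusted p = 0.571), and with an offset for GC content -0.094 (adjusted p = 0.364).

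Vpreb1 had 140.4, 118 and 125 normalized CPM in wt, 161, 139.7 and 180.0 in Stat5a-/-, and 201, 174 and 168 in Stat5b-/- libraries. The Stat5b-/- libraries all lay above wt, whereas 1 Stat5a-/- library lay within the wt range. The rise in Stat5b-/- measured 0.50 on the log2 scale (SE 0.12, adjusted p = 0.00371). In Stat5a-/- it was 0.33 (SE 0.12, adjusted p = 0.0465), and this call was lost in 13 of 18 other settings, among them DESeq2 (adjusted p = 0.0741) and an offset for GC content (log2 fold change 0.15, adjusted p = 0.146). Without Stat5a-/- replicate 3 it was 0.21 (adjusted p = 0.239).

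Vpreb2 moved in the other direction in Stat5b-/-. It had 244, 204 and 219 normalized CPM in wt, 260.4, 268 and 268 in Stat5a-/-, and 57.5, 63.5 and 57.8 in Stat5b-/- libraries. No Stat5b-/- library came near the other 6. Its log2 fold change in Stat5b-/- was -1.90 against wt (SE 0.10, adjusted p = 7.65e-09), so that wt was 3.73-fold higher, and -2.15 against Stat5a-/- (SE 0.10, adjusted p = 4.34e-09). In Stat5a-/- against wt it was 0.25 (SE 0.096, adjusted p = 0.0538), with every Stat5a-/- library above every wt library, and 0.084 with the GC offset (adjusted p = 0.446).

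The balance of the near copies within a library shows the same. Vpreb2 took 63.5%, 63.3% and 63.7% of the reads on Vpreb1 and Vpreb2 in wt, 61.8%, 65.7% and 59.8% in Stat5a-/-, and 22.3%, 26.8% and 25.6% in Stat5b-/- libraries. Per kilobase of the counted models, the ratio of Vpreb2 to Vpreb1 was 4.52 ± 0.040 (SD, n = 3) in the wt line, 4.35 ± 0.57 in Stat5a-/- and 0.862 ± 0.11 in Stat5b-/-. An exact two-sided permutation test of the log2 ratio, Stat5b-/- against wt, gave p = 0.1 (0.15 adjusted over 6 tests of ratios). That is the smallest p that 3 against 3 allows and the one that any full separation gives, so it adds nothing to the values. Reads that match both genes were not counted by default, in any library. With the reads of both genes summed, the log2 fold change of Stat5b-/- was -0.54 against wt (adjusted p = 6.85e-04) and -0.82 against Stat5a-/- (adjusted p = 4.01e-05), opposite in sign to that of Vpreb1 alone.

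**Figure D2:**
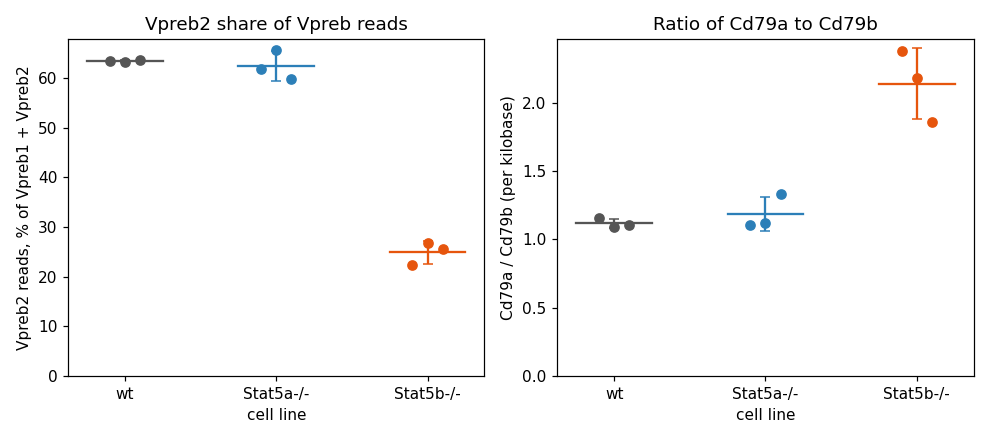
The percent of Vpreb1 and Vpreb2 reads that fell on Vpreb2 (left) and the ratio of Cd79a to Cd79b per kilobase (right) in each library of the 3 lines, with the mean as a line and the SD as a bar (n = 3). The 3 Stat5b-/- libraries lie below 27% on the left and above 1.8 on the right, apart from the other 6 in both.

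Vpreb3 (ENSMUSG00000000903.3, chr10:75943057-75949657, plus strand) encodes a VpreB-like protein of the endoplasmic reticulum that binds the heavy chain. It had 2042, 1766 and 2007 normalized CPM in wt, 2340.2, 2747 and 2541 in Stat5a-/-, and 2279, 2309.8 and 2021 in Stat5b-/- libraries. The Stat5a-/- libraries lay above all others, and the Stat5b-/- and wt libraries overlapped. The log2 fold change was 0.39 in Stat5a-/- (SE 0.11, adjusted p = 0.0135), a call that was lost without wt replicate 2 (adjusted p = 0.0672) or Stat5a-/- replicate 2 (0.0773), and 0.18 in Stat5b-/- (SE 0.11, adjusted p = 0.191), where it was 0.12 without wt replicate 2.

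The heavy chain gene showed the widest contrast between the knockouts after Vpreb2. Ighm (ENSMUSG00000076617.9, chr12:113418558-113422730, minus strand), the constant region of the µ chain, had 1974, 1833 and 1972 normalized CPM in wt. It had 4129, 4762 and 4621 in Stat5a-/- and 1433, 1555 and 1449 in Stat5b-/- libraries. The groups did not overlap, with Stat5a-/- highest and Stat5b-/- lowest. Against wt, Ighm rose by 1.23 on the log2 scale in Stat5a-/- (SE 0.10, adjusted p = 7.94e-07) and fell in Stat5b-/-, where the value was -0.38 (SE 0.10, adjusted p = 0.00826). The knockouts differed by -1.61 (SE 0.10, adjusted p = 1.01e-07). Per kilobase, Ighm stood at 3.63 ± 0.093 times Igll1 in wt, 5.13 ± 0.68 times in Stat5a-/- and 1.85 ± 0.16 times in Stat5b-/- (SD, n = 3).

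The signalling subunits parted in Stat5b-/-. Cd79a (ENSMUSG00000003379.7, chr7:24897381-24902197, plus strand), the gene of Igα, had 746, 678 and 715 normalized CPM in wt, 1206, 1134 and 1469.9 in Stat5a-/-, and 1740.1, 1525 and 1276 in Stat5b-/- libraries. Both knockouts lay above wt and overlapped each other. Its log2 fold change was 0.83 in Stat5a-/- (SE 0.13, adjusted p = 2.54e-04) and 1.09 in Stat5b-/- (SE 0.13, adjusted p = 2.22e-05). The knockouts differed by 0.25 (SE 0.13, adjusted p = 0.157), and with an offset for GC content by 0.40 (adjusted p = 0.00213). Without Stat5b-/- replicate 1 the difference was 0.13 (adjusted p = 0.484), and without Stat5b-/- replicate 3 it was 0.36 (adjusted p = 0.0468). Of the 50-base windows of Cd79a, 8.31% are shared with the processed pseudogene Gm32220.

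Cd79b (ENSMUSG00000040592.11, chr11:106311341-106314762, minus strand), the gene of Igβ, had 633, 609.5 and 635 normalized CPM in wt, 1069.9, 994 and 1082 in Stat5a-/-, and 718, 686 and 673 in Stat5b-/- libraries. The Stat5a-/- libraries stood apart from the rest, and the Stat5b-/- libraries lay just above wt. The log2 fold change was 0.74 in Stat5a-/- (SE 0.090, adjusted p = 2.28e-05). In Stat5b-/- it was 0.15 (SE 0.090, adjusted p = 0.207) and 0.093 without Stat5b-/- replicate 1, and Stat5b-/- was below Stat5a-/- by -0.60 (SE 0.090, adjusted p = 2.21e-04). CD79A and CD79B act as a heterodimer. Per kilobase, the ratio of Cd79a to Cd79b was 1.12 ± 0.034 (SD, n = 3) in the wt line, 1.19 ± 0.13 in Stat5a-/- and 2.14 ± 0.26 in Stat5b-/-. Every Stat5b-/- library had a higher ratio than every other library. With such a separation the exact two-sided permutation test against wt could only give p = 0.1, again the smallest possible (0.15 adjusted over the 6 tests).

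Syk and Blnk rose in both knockouts, and Btk rose in Stat5a-/-. Syk (ENSMUSG00000021457.14, chr13:52583173-52648792, plus strand), the kinase that binds the phosphorylated CD79 chains, had 213, 189 and 208 normalized CPM in wt, 319.6, 286 and 373 in Stat5a-/-, and 355, 344 and 278 in Stat5b-/- libraries. All knockout libraries lay above wt, and those of the knockouts overlapped. The log2 fold change against wt was 0.68 in both (SE 0.12 in both), with an adjusted p of 7.00e-04 in Stat5a-/- and 5.90e-04 in Stat5b-/-, and the knockouts differed by -0.0035 (SE 0.12, adjusted p = 0.985).

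Blnk (ENSMUSG00000061132.13, chr19:40928927-40994535, minus strand), the adaptor on which SYK assembles BTK and phospholipase C gamma 2, had 551, 504 and 538 normalized CPM in wt, 755, 842 and 827 in Stat5a-/-, and 716, 849.6 and 773 in Stat5b-/- libraries. The wt libraries were again below all others. The log2 fold change was 0.61 in Stat5a-/- (SE 0.10, adjusted p = 3.47e-04) and 0.55 in Stat5b-/- (SE 0.10, adjusted p = 5.74e-04). Stat5b-/- and Stat5a-/- differed by -0.05 (SE 0.10, adjusted p = 0.720).

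Btk (ENSMUSG00000031264.13, chrX:134542336-134583570, minus strand), the kinase mutated in X-linked agammaglobulinaemia, had 146, 150.1 and 139.7 normalized CPM in wt, 203, 209 and 183 in Stat5a-/-, and 116, 162 and 166 in Stat5b-/- libraries. The Stat5a-/- libraries lay above all others, and the Stat5b-/- libraries spanned the wt range. The log2 fold change was 0.45 in Stat5a-/- against wt (SE 0.13, adjusted p = 0.0137) and 0.03 in Stat5b-/- against wt (SE 0.13, adjusted p = 0.879). Stat5b-/- lay below Stat5a-/- by -0.42 (SE 0.13, adjusted p = 0.0214). The first call was lost without wt replicate 3 (adjusted p = 0.0622) or Stat5a-/- replicate 2 (0.0523), and the last without Stat5a-/- replicate 1 (0.0552) or 2 (0.0613). Without Stat5b-/- replicate 1, the library with 116, the difference between the knockouts was -0.28 (adjusted p = 0.0479).

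**Figure D3:**
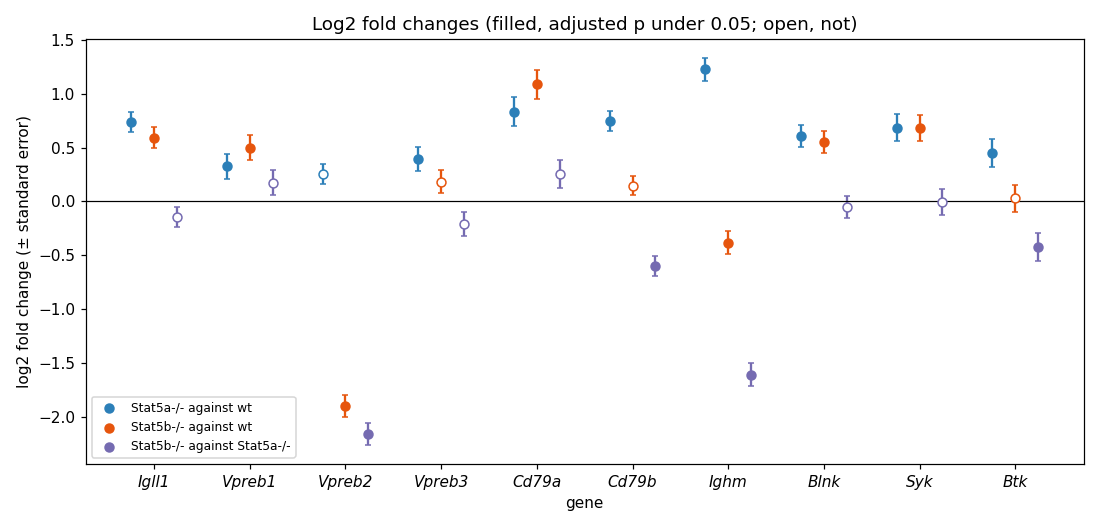
Log2 fold change of each gene (vertical axis, with its standard error as a bar) in the 3 comparisons, with filled points for an adjusted p under 0.05 and open points otherwise. In Stat5a-/- against wt all 10 values are above 0 and 9 are filled, where 19.8% of all genes were called higher. Stat5b-/- against wt holds values from -1.90 for Vpreb2 to 1.09 for Cd79a.

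In wt, levels per length placed Vpreb3 and the receptor chains above Blnk, Btk and Syk. Vpreb3 had the highest mean RPKM (reads per kilobase, scaled by the library total) of the 10 genes, 2257 ± 175 (SD, n = 3), and ranked 11 among the 13852 genes tested. Ighm followed with 1021 ± 42.7, and then came Vpreb2 with 519 ± 47.8, Cd79a with 489.5 ± 23.3 and Cd79b with 437 ± 9.89, of which Vpreb2 and Cd79a overlapped within their SDs. Igll1 had 281 ± 6.75 and Vpreb1 115 ± 10.3. The level of Vpreb2 rests on its coding part alone. Below them were Blnk with 88.7 ± 4.09, Btk with 46.1 ± 1.68 and Syk with 21.7 ± 1.30. In Stat5b-/- the order changed above Blnk: Cd79a (1039 ± 159) stood above Ighm (784 ± 35.1), and Vpreb2 (139 ± 7.84) fell below Igll1 (424 ± 17.4) and to the level of Vpreb1 (162 ± 15.8). In Stat5a-/- the first places stayed with Vpreb3 (2960 ± 237) and Ighm (2388 ± 176).

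A conventional light chain was scarce beside the surrogate one. Igkc, the κ constant region, had 17.6, 22.3 and 18.9 normalized CPM in wt, 16.9, 20.2 and 14.5 in Stat5a-/-, and 28.1, 24.7 and 32.1 in Stat5b-/- libraries. In Stat5b-/- its level rose by 0.53 on the log2 scale (SE 0.15, adjusted p = 0.0109), and in Stat5a-/- it was -0.19 (adjusted p = 0.365). Per kilobase it stood at 0.131 ± 0.019 of Igll1 in wt, 0.0694 ± 0.014 in Stat5a-/- and 0.125 ± 0.012 in Stat5b-/- (SD, n = 3). Ighd, the δ heavy chain region transcribed together with Ighm in mature B cells, rose in Stat5a-/- (1.61, SE 0.13, adjusted p = 6.38e-07), as Ighm did. It also rose in Stat5b-/- (0.53, SE 0.13, adjusted p = 0.00514), where Ighm fell. Of 12 constant region genes, Ighm included, 7 were tested, of which 4 rose and 0 fell in Stat5a-/- (19.8% and 16.3% of all genes) and 4 rose and 1 fell in Stat5b-/- (24.2% and 22.0%). These counts include Iglc3 in both knockouts and Igha in Stat5b-/-, which had few reads in wt, entered the test through their knockout libraries and are given as reads only. Iglc3 had 5, 7 and 10 reads in wt, 19, 12 and 8 in Stat5a-/-, and 20, 11 and 29 in Stat5b-/- libraries. Igha had 5, 8 and 15 reads in wt, 10, 16 and 9 in Stat5a-/-, and 21, 14 and 19 in Stat5b-/- libraries.

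Other genes of the pathway were counted over named lists. Of 38 further proximal kinases, adaptors and effectors, 17 rose and 3 fell in Stat5a-/-, against 19.8% and 16.3% of all genes. In Stat5b-/- 22 rose, the kinase Blk among them, and 5 fell, against 24.2% and 22.0%. Lyn, the kinase that first phosphorylates the CD79 chains, had log2 fold changes of 0.10 in Stat5a-/- and 0.25 in Stat5b-/-, neither past the test (adjusted p = 0.471 and 0.0561). Plcg2, the phospholipase that BTK activates, had -0.13 and 0.14 (adjusted p = 0.386 and 0.319). The exchange factor Vav3 rose by 2.86 in Stat5b-/- (adjusted p = 1.63e-06), from 21, 40 and 33 reads in wt to 166, 177 and 199. Blk had 9, 4 and 7 reads in wt, 9, 6 and 7 in Stat5a-/-, and 65, 43 and 48 in Stat5b-/- libraries, so it entered the test through its Stat5b-/- libraries, and its change is given as reads only. Among the genes that fell was the scaffold Bank1 (-1.67 in Stat5a-/- and -2.35 in Stat5b-/-).

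Genes that restrain the signal were counted in the same way. Of 21 inhibitory receptors, phosphatases and adaptors, 10 rose and 0 fell in Stat5a-/- and 17 rose and 1 fell in Stat5b-/-, where 19.8% and 16.3% of all genes rose and fell in Stat5a-/- and 24.2% and 22.0% in Stat5b-/-. Pag1, an adaptor that holds the kinase CSK, rose by 1.25 and 2.84, and Siglecg, an inhibitory receptor, by 1.33 and 1.95 on the log2 scale. Ptpn6, the phosphatase SHP-1, rose by 0.30 in Stat5a-/- (adjusted p = 0.0267) and 0.29 in Stat5b-/- (adjusted p = 0.0240), calls that were lost in 9 and 7 of 18 other settings, among them each of wt replicates 2 and 3 left out (adjusted p = 0.0918 and 0.127 in Stat5a-/-, 0.0814 and 0.114 in Stat5b-/-). Inpp5d, the lipid phosphatase SHIP1, rose by 0.56 in Stat5b-/- (adjusted p = 0.00327) and had -0.10 in Stat5a-/- (adjusted p = 0.576). The gene that fell in Stat5b-/- was Fcgr2b (-0.71, adjusted p = 1.05e-04).

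Of 21 genes known to act downstream of the pre-BCR, 6 rose and 10 fell in Stat5a-/- (19.8% and 16.3% of all genes). In Stat5b-/- 7 rose and 7 fell (24.2% and 22.0% of all genes), so both shares lie not far above the background. Ikzf3 (Aiolos) rose by 2.51 and 2.70, and Irf4 by 0.82 and 1.22. Ikzf1 fell in both, with -0.50 in Stat5a-/- (adjusted p = 0.0011) and -0.36 in Stat5b-/- (adjusted p = 0.0086). Bcl6 fell in Stat5a-/- (-0.77, adjusted p = 0.0027) and had 0.24 in Stat5b-/- (adjusted p = 0.230). Rag1, a subunit of the recombinase that rearranges the light chain, had 1002, 1328 and 1098 reads in wt, 2, 3 and 1 in Stat5a-/-, and 7, 10 and 11 in Stat5b-/- libraries. Rag2 had 477, 744 and 512 reads in wt, 2, 0 and 1 in Stat5a-/-, and 7, 16 and 6 in Stat5b-/- libraries. Both are among the genes counted as fallen in each knockout, entered the test through their wt libraries and are given as reads only. Of 14 transcription factors that switch on surrogate light chain and CD79 genes, 4 rose and 2 fell in each knockout, shares near those of all genes (19.8% and 16.3% in Stat5a-/-, 24.2% and 22.0% in Stat5b-/-). Spib, an ETS-family factor of B cells, rose by 2.35 in Stat5a-/- (adjusted p = 7.09e-09) and by 1.55 in Stat5b-/- (adjusted p = 2.85e-07). Ets1 rose by 0.94 in Stat5b-/- (adjusted p = 5.45e-06) and by 0.29 in Stat5a-/- (adjusted p = 0.0368), the latter a call lost in 8 of 18 other settings. Bcl11a rose by 0.38 in Stat5a-/- (adjusted p = 0.0107), a call lost without wt replicate 3 (adjusted p = 0.0620) or Stat5a-/- replicate 2 (0.0525), and fell in Stat5b-/- (-0.61, adjusted p = 3.09e-04). Ebf1 did not pass the test in Stat5a-/- (-0.01, adjusted p = 0.959) or in Stat5b-/- (0.25, adjusted p = 0.0825), Tcf3 did not either (adjusted p = 0.417 and 0.142), and Pax5 fell in Stat5b-/- (-0.39, adjusted p = 0.0445), a call lost in 6 settings, with -0.22 (adjusted p = 0.150) without Stat5b-/- replicate 3.

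**Figure D4:**
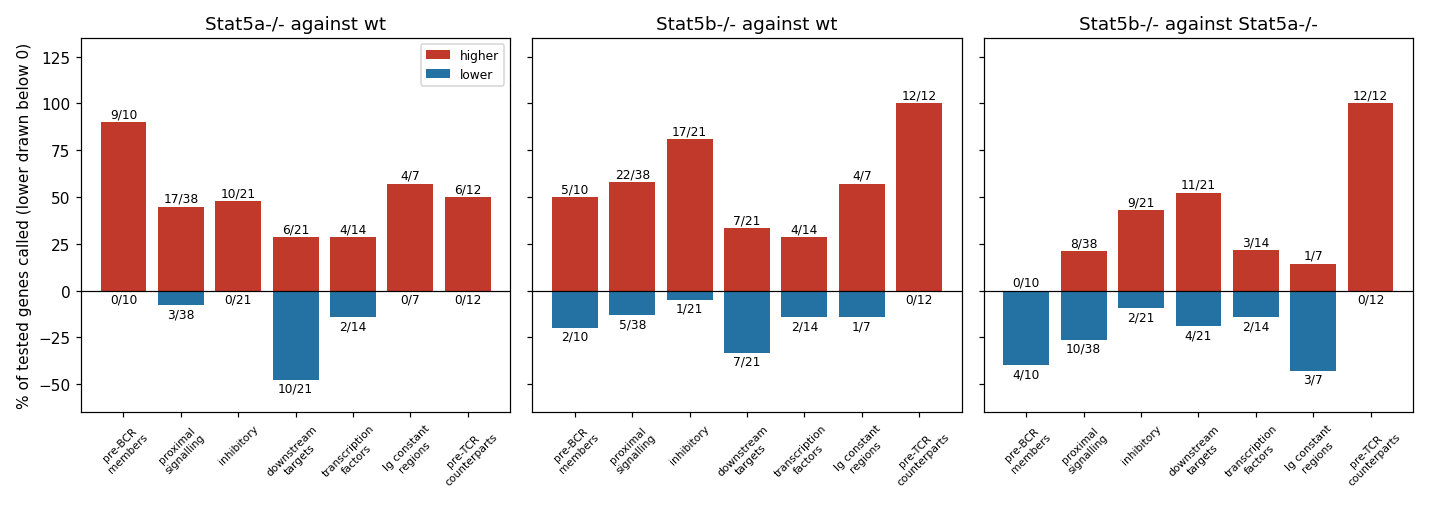
Percent of the tested genes of each list that were called higher (above 0) or lower (below 0) in each comparison, with the counts printed at the bars. The pre-BCR genes have 9 of 10 higher in Stat5a-/- against wt (19.8% of all genes) and 4 of 10 lower in Stat5b-/- against Stat5a-/- (17.5% of all genes). The pre-TCR counterparts have 12 of 12 higher in Stat5b-/- in both of its comparisons (24.2% of all genes against wt and 16.4% against Stat5a-/-).

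T-lineage genes moved with the lines as well. The summed level of 18 T-lineage markers was 952 to 1312 normalized CPM in wt, 1627 to 1894 in Stat5a-/- and 2035 to 2965 in Stat5b-/- libraries, and 16 of 17 tested were higher in Stat5b-/- than in wt, against 24.2% of all genes. Ptcra, which encodes the chain of the pre-T-cell receptor that stands in for the surrogate light chain, had at most 2 reads in a library. Of 13 pre-T-cell-receptor counterparts of the pre-BCR genes, 10 are also among those markers, 12 were tested, and 6 rose in Stat5a-/- and 12 in Stat5b-/- (19.8% and 24.2% of all genes). Zap70, the T-cell relative of Syk, rose in Stat5b-/- by 2.34 (SE 0.12, adjusted p = 4.86e-09); Syk rose by 0.68. Lcp2 (SLP-76), the relative of Blnk, rose by 0.83 in Stat5a-/- (SE 0.14) and by 1.74 in Stat5b-/- (SE 0.15). In bulk libraries, fewer cells of a type and less RNA per cell cannot be told apart, and the part of T-lineage reads in the results on the pre-BCR genes was not tested.

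Markers of the B lineage were the most abundant of the marker lists. The summed level of 16 B-lineage markers was 4767 to 5124 normalized CPM in wt, 5395 to 6220 in Stat5a-/- and 5444 to 6369 in Stat5b-/- libraries, and each marker had more than 3 reads in at least 1 library. Of these, 4 rose and 4 fell in Stat5a-/-, not far from the 19.8% and 16.3% of all genes, and 11 rose and 4 fell in Stat5b-/- (24.2% and 22.0% of all genes). The counts include Rag1 and Rag2, fallen in both knockouts, and Blk, risen in Stat5b-/-, which entered the test through the libraries where they are high. Summed myeloid markers reached at most 11.7, erythroid and megakaryocyte markers 15.2 and natural killer markers 30.5 normalized CPM in any library. Myeloid markers had 4.39 to 7.02 in wt and 10.3 to 11.7 in Stat5b-/-, and erythroid and megakaryocyte markers 11.8 to 14.0 and 3.36 to 3.96. The list of 8 stromal and endothelial markers, which includes Pecam1 of the inhibitory list, had 121 to 127 in wt. It had 106 to 115 in Stat5a-/- and 202 to 217 in Stat5b-/- libraries. Of the 8, 4 had at most 3 reads in every library and only 1 was tested, so this sum rests on few genes.

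Across the 9 libraries, the genes whose log2 levels were most like those of Igll1 were Gpd1l, Tex261, Gbp2, Eif4e3 and Pglyrp2, with Pearson's r from 0.986 to 0.988. Those most like Blnk were Endou, Traf3ip3, Galnt14, Gm47283 and Xpc, with r from 0.982 to 0.993. The 9 points are 3 clusters of technical replicates that share depth and base composition within a line, and the values describe the order of the lines.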

How the data were processed

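RNA-seq was analysed in 9 libraries (mRNA, stranded SENSE kit, 50 bp single-end), 3 technical replicates of 1 line per genotype. The authors trimmed reads with Trimmomatic, mapped them with STAR at default settings to GENCODE M13 (GRCm38), counted them on union gene models with featureCounts 1.5.1 without a strand option, and deposited raw counts. Reads from overlapping genes on opposite strands are therefore not separable. Samples were grouped by title and genotype; the GEO description calls the knockout samples wt, against both. Symbols came from GENCODE M21 (50376 of 50686 genes).

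Counts were TMM-normalized and tested with edgeR 4.0.16 (R 4.3.3; filterByExpr, glmQLFit and glmQLFTest on all 9 libraries, Benjamini-Hochberg adjustment over 13852 genes). RPKM used the lengths in the tables. Named were all 10 genes, the 2 largest and 2 smallest called log2 fold changes of each pathway list in Stat5b-/- against wt, direct partners and paralogs, and the 5 genes most correlated with Igll1 and with Blnk. Some genes that this rule names are not reported here. The members and lists were chosen with earlier results of these data known. Alternatives were DESeq2 1.42.0, RLE normalization, other filters on low counts, 2 genotypes only, Vpreb1 and Vpreb2 summed, a fold above 2, each library left out, the replicate number as a block and, chosen after seeing the data, a GC offset (loess, span 0.5) with and without that block. On simulated counts for Stat5b-/- against wt, edgeR recovered 81.4% of 97 genes changed by 1 log2 unit and 96.9% of 96 changed by 2, with 6 false calls among the 13547 genes tested. Without molecular identifiers, a read is not an independent molecule. Human samples were not analysed here.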

Additional observations from a re-analysis of the deposited data

How the results depend on the processing

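Over 18 alternatives and 3 comparisons, the log2 fold changes of the 10 genes kept direction and call in 503 cases, lost a call in 19, gained one in 7 and changed sign in 11. The lost calls were those of Vpreb1, Vpreb3 and Btk in Stat5a-/- against wt and of Btk between the knockouts. With a fold above 2 also required, members called fell to 1 higher in Stat5a-/-, 1 higher and 1 lower in Stat5b-/-, and 2 lower in Stat5b-/- against Stat5a-/-. In Stat5a-/- the 117 other pathway genes went from 46 higher and 14 lower to 18 and 6 (all genes, 19.8% and 16.3% to 7.75% and 6.49%). In Stat5b-/- against wt they went from 66 and 15 to 33 and 5 (all genes, 24.2% and 22.0% to 10.6% and 8.44%). Between the knockouts they went from 43 and 20 to 12 and 8 (all genes, 16.4% and 17.5% to 4.81% and 6.60%). With each library left out, 7 to 10 members were higher in Stat5a-/- against wt, and 3 to 4 were lower between the knockouts. Between the knockouts, 0 to 1 members were higher over the libraries left out (1, Cd79a, without Stat5b-/- replicate 3), and 2, Cd79a and Vpreb1, with the GC offset, with or without the block.

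Values that changed sign were those of Vpreb1 summed with Vpreb2 (-0.54 against wt and -0.82 against Stat5a-/- in Stat5b-/-) and otherwise of differences that were not called. With a library left out, the log2 fold change in Stat5b-/- against Stat5a-/- ranged from -0.119 to 0.0005 for Blnk, -0.097 to 0.113 for Syk, -0.053 to 0.050 for Ptpn6 and -0.040 to 0.447 for Tcf3. In Stat5b-/- against wt it ranged from -0.058 to 0.148 for Btk and -0.314 to 0.099 for Lat2, and in Stat5a-/- against wt from -0.733 to 0.044 for Vav3, -0.127 to 0.048 for Pax5, -0.095 to 0.028 for Ebf1 and -0.049 to 0.373 for Tcf3. DESeq2 gave -0.0083 for Btk. The GC offset gave 0.137 for Syk, 0.145 for Ptpn6 and 0.100 for Ebf1, and with the block 0.139, 0.143 and 0.098. The cause was not tested.

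Deviations from the line means correlated by -0.088 on average over 9 pairs of libraries of equal number (range -0.445 to 0.216). Over 18 pairs of different numbers the mean was 0.044. Since each line was centred on its own mean, the second value largely follows from the first. Equal numbers did not go with shared deviations on average, but these values cannot decide whether the numbers pair the samples. The replicate block moved the members called higher in Stat5a-/- from 9 to 8, as Vpreb1 missed the threshold (adjusted p = 0.0606), and left 5 and 2 in Stat5b-/- and 4 between the knockouts. Over all genes it moved the calls in Stat5b-/- against wt from 3348 higher and 3049 lower to 3016 and 2738.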
